A study of Rattus norvegicus with 12 samples.

Results

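This comparison set chondrocyte cultures of adult spontaneously hypertensive rats (SHR) against those of Wistar Kyoto rats (WKY), their usual control with normal blood pressure, all taken from animals 3 months old. RNA was sequenced from 3 libraries of each strain, so 6 of the 12 libraries of the series belong to it, and 13397 of the 16770 genes in the count table passed a low-count filter and were compared. Both groups were primary cells that had grown out of enzyme-digested knee cartilage as a monolayer, in the same medium with fetal bovine serum and antibiotics, and neither carried a transgene or received a drug per the labels. The other 6 libraries, from rats 5 days old, entered the same statistical model and served as a point of reference. In each group replicates 1 and 2 were labelled batch 1 and replicate 3 batch 2. Nothing in the labels ties a replicate to its own animal or culture, a collagenase concentration to a library, or a sex to an animal. The p-values therefore reflect only how much these libraries spread, which may be technical.

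Articular chondrocytes build the smooth cartilage that covers bone ends, from type II collagen and the large proteoglycan aggrecan under the control of the transcription factor Sox9. Grown flat on plastic, these cells are known to lose much of that programme and to take up fibroblast-like collagens and contractile fibres. The SHR strain was inbred for high blood pressure and differs from WKY at many places in its genome.

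The depth was even, with 17874553 to 20358117 counts in the 6 libraries, and 1 count was worth 0.0491 to 0.0559 CPM (counts scaled to a common library total). The first principal component of these libraries, with 48.0% of the variance, separated the batches, and the second, with 31.1%, placed the 3 WKY libraries between 31.0 and 35.7 and the SHR libraries at -21.0, -84.1 and 4.16. SHR replicate 2 thus stood apart from the other SHR libraries, and the number of genes called without it is given below. Counts within the gene lists are given only with it. The label chondrocyte was checked against defining markers. Col2a1, which encodes the chain of type II collagen, was at 0.577, 0.175 and 1346 CPM in SHR and at 0.0521, 3.18 and 409.8 CPM in WKY. Batch 1 libraries of both strains therefore held almost no transcript of the main cartilage collagen, while batch 2 libraries did. Summed over 11 chondrocyte markers (CPM per total count), SHR libraries ran from 26.6 to 1464 CPM and WKY libraries from 42.9 to 472 CPM. The sum of 10 fibroblast markers per total count was 28493 to 38730 CPM in SHR and 12746 to 27325 CPM in WKY, without overlap on this scale. Most of this sum was Col1a1 (22270 to 30180 CPM in SHR, 8458 to 24094 in WKY), in which the strains overlapped. TMM scaling, a correction for library composition, had factors of 0.882 in WKY replicate 3 and 1.03 in SHR replicate 1. With it the fibroblast sum of WKY replicate 3 would lie above that of SHR replicate 1. Of the 10 markers 6 had positive and 4 negative log2 fold changes, and the fibroblast receptor gene Pdgfra was at 489, 236 and 369 CPM in SHR and at 1289, 962 and 452 CPM in WKY. Markers of other cell types were present too. Over the 6 libraries, those of synovial lining and tendon summed to 2278 to 9626 CPM, mostly Tnc, while the tendon gene Tnmd had no counts. Those of pericytes and smooth muscle summed to 169 to 3646 CPM, mostly Acta2. Osteoblast markers summed to 990 to 1742 CPM in SHR and 209 to 851 CPM in WKY, mostly Spp1, while the osteoblast factor gene Sp7 was at most 0.150 CPM. Neural and Schwann markers summed to 245 to 448 CPM in SHR and 129 to 299 CPM in WKY, mostly Ncam1. Osteoclast markers came to 43.6 to 136 CPM (mostly Ctsk), macrophage markers to 15.1 to 76.1 CPM (mostly Cd14) and endothelial markers to 9.03 to 22.8 CPM (mostly Egfl7). Skeletal muscle markers ran from 12.03 to 79.1 CPM (mostly Acta1 at the upper end) and adipocyte markers from 1.23 to 14.8 CPM. The leukocyte gene Ptprc was at most 0.295 CPM, summed lymphocyte markers at most 0.737 CPM, and the endothelial gene Kdr had no counts. The part of these cell types in the strain differences was not tested. In bulk RNA, a change in the share of a cell type and a change in RNA per cell cannot be told apart. Y-linked genes summed to at most 0.344 CPM in each library of 3 months. At 5 days the Y-linked gene Eif2s3y was at 0.158, 74.7 and 25.6 CPM in WKY and at most 0.167 CPM in SHR. Sex was not a term in the model, and its part in the 5-day reference was not tested.

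By edgeR's quasi-likelihood test with Benjamini-Hochberg adjustment over all genes tested, 48 genes were called at an adjusted p under 0.05, which is 0.358% of the 13397. Of these, 18 (0.134%) were higher and 30 (0.224%) lower in SHR. By the same test 1624 genes (12.1%) had an unadjusted p under 0.05, 920 higher and 704 lower in SHR. The counts in the gene lists below stand against these shares. In 42 of the 48 the 3 SHR libraries lay wholly above or below the 3 WKY libraries, an arrangement found in 10.1% of all genes tested. All 48 pointed the same way in batch 1 and in batch 2. The calls came from these same libraries in a model with batch as a term. Neither the separation of the 42 genes nor the agreement between batches is therefore a separate check. Leaving out a single library of 3 months moved the count from 48 to between 11 (without WKY replicate 1) and 79 (without SHR replicate 3), with 17 when WKY replicate 2 was left out and 66 when WKY replicate 3 was. Dropping SHR replicate 1 gave 36 and dropping SHR replicate 2 gave 29. With the replicate number as a block in place of the batch, 28 genes were called (10 higher, 18 lower). SHR replicates 1 and 2 of 5 days were far more alike than any other pair of replicates (chi-square per degree of freedom of 4.07, against 38.1 to 320 in the others), though beyond sampling noise, and averaging them into 1 library left 25 calls at 3 months (9 higher, 16 lower). Where either change ends the call of a gene below, its adjusted p is given. Of the 48 genes, 8 remained called in each of these 6 fits and 5 in none of them. The levels below are CPM with TMM scaling (a correction for library composition), given in the order of replicates 1, 2 and 3, with log2 fold changes of SHR over WKY. Beside each called gene stands the number of these 6 fits that called it, with the range of its edgeR adjusted p over them.

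**Figure D1:**
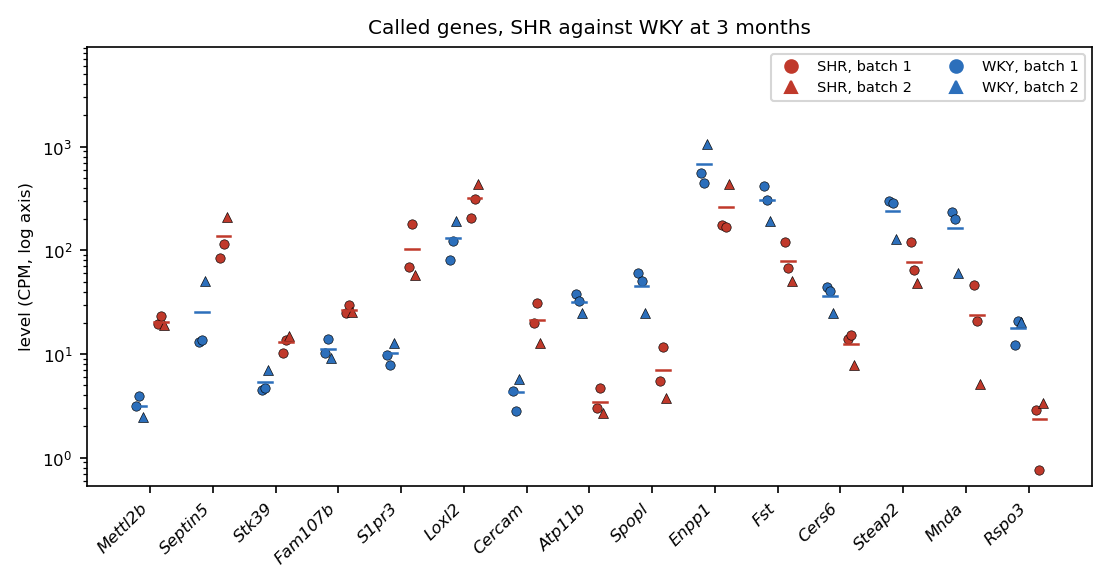
Level of 15 called genes in each library of 3 months (CPM with TMM scaling, log axis); red is SHR, blue WKY, circles are batch 1, triangles batch 2, and bars are means of 3 libraries. Septin5 sat between 83.7 and 211 CPM in SHR and between 13.03 and 50.1 CPM in WKY, and Atp11b between 2.69 and 4.67 CPM in SHR and 24.6 and 37.6 CPM in WKY.

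Among the 8 genes called in all 6 fits were those of an RNA-modifying enzyme, a filament protein, a lipid flippase and a ubiquitin ligase adaptor. Mettl2b, gene 363687, which encodes an enzyme that methylates transfer RNA, was at 19.6, 23.1 and 18.9 CPM in SHR and at 3.13, 3.89 and 2.49 CPM in WKY. Mettl2b was called higher in SHR (log2 fold change 2.70, SE 0.20, adjusted p 0.000697 by edgeR). Mettl2b kept its call in all 6 fits (adjusted p 0.00483 to 0.0130 by edgeR). Septin5, gene 116728, a GTP-binding filament protein, was at 83.7, 115 and 211 CPM in SHR and at 13.03, 13.6 and 50.1 CPM in WKY. In both strains the batch 2 library was the highest. Septin5 was called higher in SHR (log2 fold change 2.58, SE 0.24, adjusted p 0.00280 by edgeR). Septin5 kept its call in all 6 fits (adjusted p 0.00128 to 0.0291 by edgeR). Atp11b, gene 361929, a flippase that moves phospholipids across membranes, was at 3.04, 4.67 and 2.69 CPM in SHR and at 37.6, 32.2 and 24.6 CPM in WKY. The highest SHR library was well under the lowest WKY library. Atp11b was called lower in SHR (log2 fold change -3.18, SE 0.23, adjusted p 0.000697 by edgeR). Atp11b kept its call in all 6 fits (adjusted p 0.00195 to 0.0115 by edgeR). Spopl, an adaptor of a ubiquitin ligase, was at 5.45, 11.7 and 3.75 CPM in SHR and at 60.9, 50.3 and 24.95 CPM in WKY. Spopl was called lower in SHR (log2 fold change -2.70, SE 0.30, adjusted p 0.00818 by edgeR). Spopl kept its call in all 6 fits (adjusted p 0.00559 to 0.0440 by edgeR).

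Other called genes have varied roles. Cers6, an enzyme that makes ceramides, the backbone of sphingolipids, was at 14.1, 15.3 and 7.78 CPM in SHR and at 43.98, 40.5 and 24.7 CPM in WKY. Cers6 was called lower in SHR (log2 fold change -1.56, SE 0.26, adjusted p 0.0439 by edgeR). Cers6 kept its call in 1 of the 6 fits, that without WKY replicate 3 (adjusted p 0.0475 to 0.190 by edgeR). For Cers6 the adjusted p by edgeR was 0.0816 with the replicate block and 0.0770 with the alike 5-day libraries averaged. Stk39, which encodes SPAK, a kinase that regulates salt cotransporters, was at 10.3, 13.6 and 15.1 CPM in SHR and at 4.53, 4.70 and 6.96 CPM in WKY. Stk39 was called higher in SHR (log2 fold change 1.28, SE 0.18, adjusted p 0.0209 by edgeR). Stk39 kept its call in 3 of the 6 fits and lost it without WKY replicates 1 or 2 or SHR replicate 2 (adjusted p 0.0375 to 0.123 by edgeR). Fam107b was at 24.9, 29.8 and 25.5 CPM in SHR and at 10.3, 13.9 and 9.17 CPM in WKY. Each SHR library exceeded every WKY library. Fam107b was called higher in SHR (log2 fold change 1.28, SE 0.16, adjusted p 0.0146 by edgeR). Fam107b kept its call in 5 of the 6 fits and lost it without WKY replicate 1 (adjusted p 0.0216 to 0.0816 by edgeR). Steap2, a metalloreductase of iron and copper, was at 119.7, 64.6 and 48.1 CPM in SHR and at 302, 287 and 129 CPM in WKY. Steap2 was called lower in SHR (log2 fold change -1.60, SE 0.22, adjusted p 0.0209 by edgeR). Steap2 kept its call in 4 of the 6 fits and lost it without WKY replicates 1 or 2 (adjusted p 0.0132 to 0.104 by edgeR). Mnda, a gene of the interferon-inducible HIN200 family, was at 46.1, 20.6 and 5.15 CPM in SHR and at 236, 199 and 60.996 CPM in WKY. The groups did not overlap, but each strain varied widely, with batch 2 the lowest. Mnda was called lower in SHR (log2 fold change -2.99, SE 0.47, adjusted p 0.0334 by edgeR). Mnda kept its call in 1 of the 6 fits, that without SHR replicate 1 (adjusted p 0.0441 to 0.140 by edgeR). For Mnda the adjusted p by edgeR was 0.0518 with the replicate block and 0.0770 with the alike 5-day libraries averaged. Cers6 and Steap2 were named after their values were seen, since they fell outside the rule that chose the named genes.

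Low levels, overlap between the strains or dependence on a few libraries limit other calls. Lzts1, a leucine zipper protein, was at 0.787, 0.409 and 0.672 CPM in SHR and at 2.97, 4.19 and 12.5 CPM in WKY. Lzts1 was called lower in SHR (log2 fold change -3.16, SE 0.44, adjusted p 0.0209 by edgeR). Lzts1 kept its call in 4 of the 6 fits and lost it without WKY replicate 2 or SHR replicate 2 (adjusted p 0.0232 to 0.0846 by edgeR). Kcnk6, a potassium channel gene, was at 4.77, 7.25 and 18.1 CPM in SHR and at 1.04, 1.72 and 5.77 CPM in WKY. In Kcnk6, 1 SHR library lay below the highest WKY library. Kcnk6 was called higher in SHR (log2 fold change 1.92, SE 0.31, adjusted p 0.0394 by edgeR). Kcnk6 kept its call in 1 of the 6 fits, that without WKY replicate 3 (adjusted p 0.0475 to 0.190 by edgeR). For Kcnk6 the adjusted p by edgeR was 0.0747 with the replicate block and 0.0890 with the alike 5-day libraries averaged. Wfdc18, which encodes a small secreted protein with a WAP domain, was at 1.84, 0.292 and 0 CPM in SHR and at 172, 41.4 and 0.170 CPM in WKY. The Wfdc18 difference rested on the batch 1 libraries of WKY, and in batch 2 it was at 0.170 CPM in WKY and 0 in SHR. Wfdc18 was called lower in SHR (log2 fold change -6.60, SE 1.04, adjusted p 0.0336 by edgeR). Wfdc18 kept its call in 2 of the 6 fits, those without WKY replicate 2 or SHR replicate 3 (adjusted p 0.0404 to 0.163 by edgeR). For Wfdc18 the adjusted p by edgeR was 0.0622 with the replicate block and 0.0770 with the alike 5-day libraries averaged. Uap1l2 had no counts in SHR and 170 in WKY, so it was at least 57.8-fold lower in SHR, against a floor of 3 counts over the group. Uap1l2 was called at an adjusted p of 0.0298 by edgeR. Uap1l2 kept its call in 1 of the 6 fits, that without SHR replicate 3 (adjusted p 0.0452 to 0.140 by edgeR). For Uap1l2 the adjusted p by edgeR was 0.0518 with the replicate block. The interferon-induced gene Ifi44l had 2 counts in SHR and 215 in WKY. Ifi44l was called at an adjusted p of 0.0115 by edgeR. Ifi44l kept its call in 3 of the 6 fits and lost it without WKY replicate 1 or SHR replicates 1 or 2 (adjusted p 0.0272 to 0.0593 by edgeR).

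**Figure D2:**
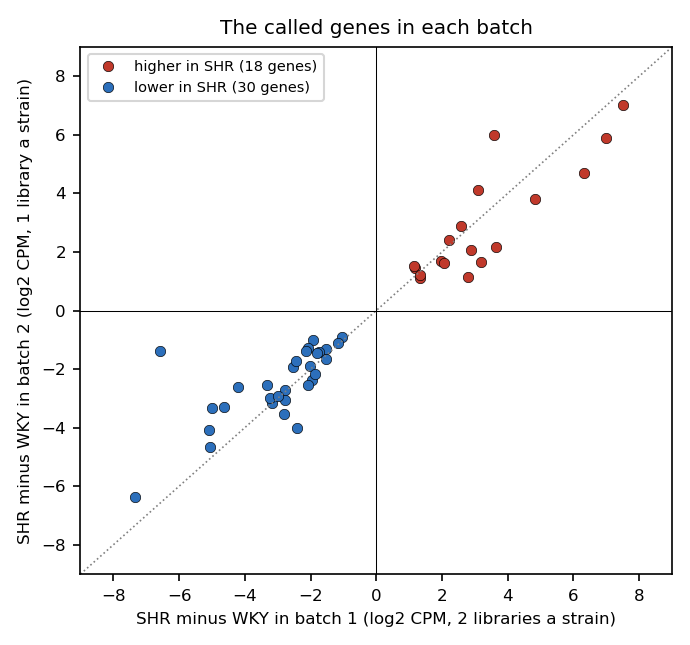
Difference between SHR and WKY in log2 CPM for each of the 48 called genes, in batch 1 (horizontal axis) and batch 2 (vertical axis); the dotted line marks equal differences. All points lie in the lower left or upper right of the plot, and the smallest difference in batch 2 was 0.91 in size. The genes were called on these same libraries.

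Against the younger animals, 46 of the 48 genes had the same sign at 5 days and 26 were called there in the same direction, 10 higher and 16 lower in SHR, where 46 of all 13397 genes (0.343%) were called. Both ages share 1 estimate of spread and of the batch effect. The other 22 were not called at 5 days. Among these were genes whose 5-day difference was small: Fst with a log2 fold change of -0.13 at 5 days, Rspo3 with -0.19 and Cercam with 0.13. Cercam was called at an adjusted p of 0.0439 by edgeR. Cercam kept its call in 2 of the 6 fits, those without WKY replicate 3 or SHR replicate 3 (adjusted p 0.00669 to 0.233 by edgeR). For Cercam the adjusted p by edgeR was 0.0833 with the replicate block and 0.0943 with the alike 5-day libraries averaged. A test of the difference between ages (the interaction) called 0 of 13397 genes (0%) by edgeR, with 569 at an unadjusted p under 0.05. The same test called 34 genes by DESeq2 and 0 by limma-voom. Fst had an interaction of -1.82 (SE 0.39, edgeR adjusted p 0.868), so a strain difference particular to adult cultures was not shown for it.

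Signalling genes of cartilage were among the calls. Follistatin, encoded by Fst, binds and neutralises activins and some bone morphogenetic proteins. Fst was at 119, 67.6 and 50.997 CPM in SHR and at 421, 309 and 192 CPM in WKY. Each WKY library was above every SHR library. Fst was called lower in SHR (log2 fold change -1.95, SE 0.28, adjusted p 0.0243 by edgeR). Fst lost its call in each of the 6 fits (adjusted p 0.0505 to 0.123 by edgeR). For Fst the adjusted p by edgeR was 0.0530 with the alike 5-day libraries averaged. In the list of 51 tested genes of the TGF-beta and BMP pathway, Fst was the only call, 30 had a positive and 21 a negative log2 fold change, and the median was 0.08 (0.19 in batch 1, -0.07 in batch 2), against 0.0055 over all genes tested. By role the median was 0.77 in 16 ligands, -0.12 in 12 receptors, 0.64 in 14 antagonists and latency proteins, and -0.13 in 9 targets. Gdf15, a stress-induced ligand, was at 6.45, 8.06 and 8.34 CPM in SHR and at 0.990, 1.92 and 3.51 CPM in WKY. Gdf15 did not pass the test (log2 fold change 1.94, SE 0.45, adjusted p 0.125 by edgeR). Acvrl1, a type I receptor of the family, was at 28.2, 2.75 and 31.6 CPM in SHR and at 2.03, 2.32 and 4.47 CPM in WKY. In it, SHR replicate 2 lay with the WKY libraries. Acvrl1 did not pass the test (log2 fold change 2.82, SE 0.76, adjusted p 0.161 by edgeR).

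Wnt signals drive growth and maturation of cartilage cells, R-spondins amplify them, and secreted frizzled-related and Dickkopf proteins dampen or modify them. Rspo3 encodes such an R-spondin. Rspo3 was at 2.88, 0.760 and 3.36 CPM in SHR and at 12.3, 21.02 and 20.1 CPM in WKY. Rspo3 was called lower in SHR (log2 fold change -2.96, SE 0.49, adjusted p 0.0453 by edgeR). Rspo3 lost its call in each of the 6 fits (adjusted p 0.0584 to 0.190 by edgeR). For Rspo3 the adjusted p by edgeR was 0.0747 with the replicate block and 0.0770 with the alike 5-day libraries averaged. Among 43 tested genes of the Wnt list Rspo3 was the only call, with 26 positive and 17 negative and a median of 0.13 (0.03 in batch 1, -0.17 in batch 2). Dkk3, a divergent member of the Dickkopf family, was at 218, 375 and 322 CPM in SHR and at 46.95, 35.2 and 39.5 CPM in WKY. Every SHR library was several times above every WKY library. Dkk3 did not pass the test (log2 fold change 2.94, SE 0.64, adjusted p 0.102 by edgeR). Sfrp1, a secreted frizzled-related protein, was at 67.9, 4.91 and 3.41 CPM in SHR and at 359, 171 and 85.2 CPM in WKY. Each SHR library was below each WKY library, and SHR replicate 1 was far above the other SHR libraries. Sfrp1 did not pass the test (log2 fold change -3.27, SE 0.81, adjusted p 0.136 by edgeR). Fzd2, a frizzled receptor, was at 66.4, 82.5 and 152 CPM in SHR and at 46.5, 48.5 and 109 CPM in WKY. Fzd2 did not pass the test (log2 fold change 0.58, SE 0.15, adjusted p 0.140 by edgeR).

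Sphingosine 1-phosphate and lysophosphatidic acid are lipid messengers that act on cell shape and migration through their own receptors. S1pr3 encodes a receptor of the former. S1pr3 was at 68.6, 181 and 57.8 CPM in SHR and at 9.85, 7.78 and 12.8 CPM in WKY. SHR replicate 2 was the highest, and the lowest SHR library was still above the highest WKY library. S1pr3 was called higher in SHR (log2 fold change 3.15, SE 0.50, adjusted p 0.0336 by edgeR). S1pr3 kept its call in 2 of the 6 fits, those without WKY replicate 3 or SHR replicate 1 (adjusted p 0.0131 to 0.207 by edgeR). For S1pr3 the adjusted p by edgeR was 0.0609 with the replicate block and 0.0770 with the alike 5-day libraries averaged. Of 18 genes tested on the list S1pr3 was the only call, 7 were positive and 11 negative, and the median was -0.14. Lpar1, a lysophosphatidic acid receptor, was at 53.1, 50.9 and 35.7 CPM in SHR and at 80.1, 105 and 58.7 CPM in WKY. Lpar1 did not pass the test (log2 fold change -0.79, SE 0.25, adjusted p 0.239 by edgeR). Enpp2, which encodes autotaxin, the enzyme that makes lysophosphatidic acid, was at 12.6, 4.62 and 27.8 CPM in SHR and at 75.2, 55.1 and 39.8 CPM in WKY. Enpp2 did not pass the test (log2 fold change -2.12, SE 0.74, adjusted p 0.285 by edgeR).

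Collagens and the enzymes that modify them mostly had positive values. Loxl2 encodes a lysyl oxidase, which crosslinks collagen. Loxl2 was at 205, 314 and 439 CPM in SHR and at 80.7, 123 and 189.8 CPM in WKY. Both strains had their highest value in batch 2. Loxl2 was called higher in SHR (log2 fold change 1.30, SE 0.22, adjusted p 0.0440 by edgeR). Loxl2 lost its call in each of the 6 fits (adjusted p 0.0573 to 0.192 by edgeR). For Loxl2 the adjusted p by edgeR was 0.0740 with the replicate block and 0.0966 with the alike 5-day libraries averaged. On the list of collagen crosslinking and processing 1 of 27 genes was called, 23 were positive and 4 negative, and the median of 0.34 compares with 0.0055 over all genes. The median was 0.33 in batch 1 and 0.34 in batch 2. By role it was 1.07 in 5 lysyl oxidases, 0.33 in 15 hydroxylases and chaperones, and 0.34 in 7 propeptide proteases and fibril regulators. Colgalt1, which adds galactose to collagen, was at 261, 343 and 546 CPM in SHR and at 187, 176 and 327 CPM in WKY. Colgalt1 did not pass the test (log2 fold change 0.74, SE 0.16, adjusted p 0.0981 by edgeR). P3h1, a prolyl hydroxylase of collagen, was at 186, 194 and 362 CPM in SHR and at 126, 135 and 256 CPM in WKY. P3h1 did not pass the test (log2 fold change 0.53, SE 0.13, adjusted p 0.128 by edgeR). Plod3, a lysyl hydroxylase, was at 369, 398 and 460.5 CPM in SHR and at 222, 239.7 and 337 CPM in WKY. The strains did not overlap. Plod3 did not pass the test (log2 fold change 0.64, SE 0.17, adjusted p 0.145 by edgeR).

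In the fibrous matrix list, 24 of 30 genes were positive and 6 negative with a median of 0.65, and none was called. Its 14 collagens had a median of 1.15, with 13 positive. Col1a1, a chain of type I collagen, was at 21554, 32280.4 and 27769.9 CPM in SHR and at 7878, 8755 and 27333 CPM in WKY. In WKY, replicate 3 lay among the SHR libraries, and replicates 1 and 2 were the low ones. Col1a1 did not pass the test (log2 fold change 1.14, SE 0.35, adjusted p 0.215 by edgeR). Col3a1, the chain of type III collagen, was at 1732, 4398 and 1888 CPM in SHR and at 766, 444 and 872 CPM in WKY. Each SHR library was above any WKY library. Col3a1 did not pass the test (log2 fold change 1.88, SE 0.44, adjusted p 0.126 by edgeR). Col5a1, a chain of type V collagen, which starts fibrils, was at 977, 2218 and 2951 CPM in SHR and at 396, 510.5 and 1879 CPM in WKY. Col5a1 did not pass the test (log2 fold change 1.41, SE 0.34, adjusted p 0.126 by edgeR). Vcan, the proteoglycan versican, was at 259.8, 178 and 150.4 CPM in SHR and at 444, 293 and 411 CPM in WKY. Here each SHR library was below each WKY library. Vcan did not pass the test (log2 fold change -0.98, SE 0.22, adjusted p 0.108 by edgeR). Of the 10 small leucine-rich proteoglycans tested, which coat collagen fibrils, 6 were positive, with a median of 0.75 (-0.31 in batch 1, 0.26 in batch 2), and none was called. Aspn, which encodes asporin, a protein that binds collagen and TGF-beta, was at 32.1, 84.1 and 55.6 CPM in SHR and at 3.65, 0.758 and 12.7 CPM in WKY. Aspn did not pass the test (log2 fold change 3.37, SE 0.90, adjusted p 0.157 by edgeR). The fibroblast marker sum per total count was also higher in each SHR library, though with TMM scaling the strains would overlap. Col1a1 and Col3a1 are in that sum as well as in the fibrous matrix list, so it is no separate measure.

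Cartilage matrix and identity genes showed no called difference. Of 27 tested, 16 were positive and 11 negative, with a median of 0.40, at -0.35 in batch 1 and 1.02 in batch 2. All 7 collagens of the list were positive in the model (median 2.06), with a median difference of 0.82 in batch 1 and 1.72 in batch 2. Some had few counts in batch 1, such as Col9a1 at no more than 0.222 CPM per total count. The 4 transcription factors had a median of -0.69, and 16 proteoglycans and linkers 0.05. Col2a1 did not pass the test (log2 fold change 0.40, SE 1.33, adjusted p 0.954 by edgeR). Its value was -2.07 in batch 1 alone and -0.02 without WKY replicate 1, so no direction was fixed. Acan, which encodes aggrecan, was at 6.08, 187 and 63.3 CPM in SHR and at 0.104, 0.0505 and 7.64 CPM in WKY. Acan did not pass the test (log2 fold change 6.97, SE 1.78, adjusted p 0.143 by edgeR). Sox9 was at 3.72, 9.76 and 28.5 CPM in SHR and at 2.14, 6.72 and 29.1 CPM in WKY. Sox9 did not pass the test (log2 fold change 0.41, SE 0.47, adjusted p 0.807 by edgeR). Sox6, a partner of Sox9, was at 5.09, 6.02 and 31.2 CPM in SHR and at 16.9, 20.5 and 45.04 CPM in WKY. Sox6 did not pass the test (log2 fold change -1.35, SE 0.24, adjusted p 0.0586 by edgeR). Col9a3, a chain of type IX collagen, was at 0.0524, 0.117 and 4.76 CPM in SHR and at 0, 0 and 0.226 CPM in WKY. Col9a3 did not pass the test (log2 fold change 4.43, SE 0.78, adjusted p 0.0549 by edgeR). Col11a1, a chain of type XI collagen, was at 459.6, 1601 and 1202 CPM in SHR and at 129, 195 and 689 CPM in WKY. Col11a1 did not pass the test (log2 fold change 2.18, SE 0.52, adjusted p 0.126 by edgeR). Prg4, the gene of lubricin, which lubricates joint surfaces, was at 24.8, 4.21 and 301 CPM in SHR and at 42.3, 40.4 and 263 CPM in WKY. Prg4 did not pass the test (log2 fold change -0.69, SE 0.83, adjusted p 0.823 by edgeR). Comp, an oligomeric protein of cartilage matrix, was at 7.29, 6.19 and 35.1 CPM in SHR and at 8.81, 6.57 and 7.24 CPM in WKY. Comp did not pass the test (log2 fold change 0.29, SE 0.60, adjusted p 0.911 by edgeR).

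**Figure D3:**
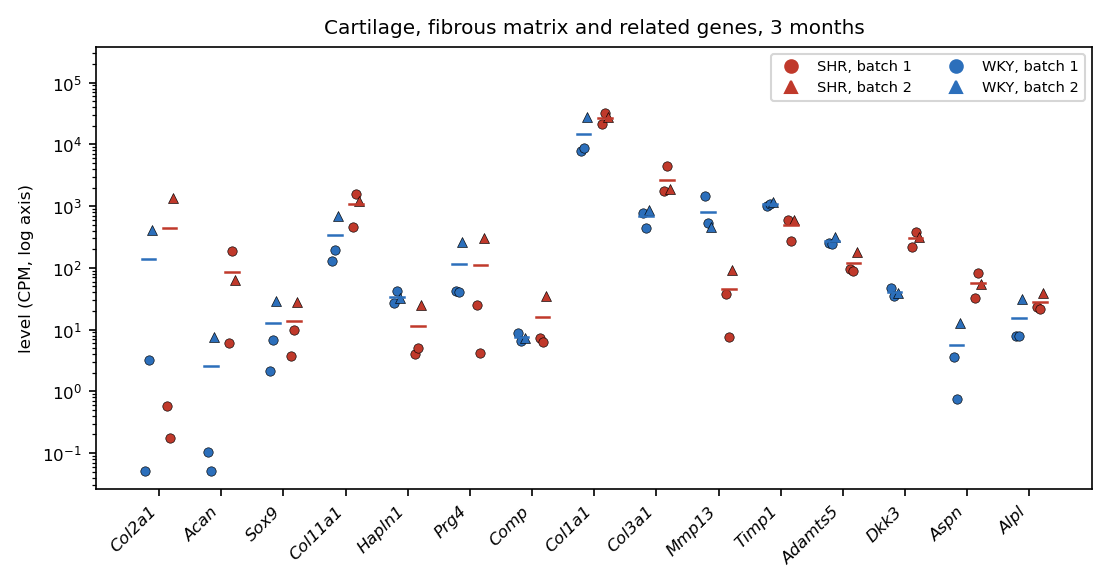
Level of 15 cartilage, fibrous matrix and related genes in each library of 3 months (CPM with TMM scaling, log axis), with colours, shapes and mean bars as for the called genes. Col2a1 was at most 3.18 CPM in batch 1 and at least 409.8 CPM in batch 2, while Dkk3 separates by strain, at 218 to 375 CPM in SHR and 35.2 to 47.0 CPM in WKY.

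Matrix-degrading enzymes and their inhibitors held no call among 42 genes (22 positive, 20 negative, median 0.01). The median was -0.35 without SHR replicate 3 and -0.34 in a fit of batch 1 alone, and the difference in batch 2 had a median of 0.14. Mmp13, a collagenase that cuts type II collagen, was at 37.1, 7.60 and 91.5 CPM in SHR and at 1465, 529 and 453 CPM in WKY. Each SHR library was below each WKY library. Mmp13 did not pass the test (log2 fold change -4.55, SE 1.07, adjusted p 0.126 by edgeR). Adamts5, an aggrecanase, was at 94.1, 89.4 and 180.5 CPM in SHR and at 250.0, 239 and 317 CPM in WKY. Adamts5 did not pass the test (log2 fold change -1.16, SE 0.33, adjusted p 0.187 by edgeR). Timp1, an inhibitor of metalloproteinases, was at 604, 269.8 and 591 CPM in SHR and at 1007, 1086 and 1155 CPM in WKY. In both genes the SHR libraries were all below the WKY libraries. Timp1 did not pass the test (log2 fold change -1.17, SE 0.33, adjusted p 0.189 by edgeR). Of 8 inhibitors tested, 7 were negative (median -0.81). Serpine2, an inhibitor of serine proteases, was at 983, 885 and 401 CPM in SHR and at 3224, 4898 and 819 CPM in WKY. Serpine2 did not pass the test (log2 fold change -1.83, SE 0.47, adjusted p 0.146 by edgeR).

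Mineral formation is held back by pyrophosphate, which Enpp1 makes and the phosphatase encoded by Alpl destroys. Enpp1 was at 177, 169 and 432 CPM in SHR and at 552, 443 and 1063 CPM in WKY. Within each batch WKY was above SHR, and batch 2 was the higher in both strains. Enpp1 was called lower in SHR (log2 fold change -1.46, SE 0.17, adjusted p 0.0115 by edgeR). Enpp1 kept its call in 5 of the 6 fits and lost it without WKY replicate 1 (adjusted p 0.0189 to 0.0508 by edgeR). Alpl was at 23.1, 21.3 and 39.02 CPM in SHR and at 7.82, 7.78 and 30.8 CPM in WKY. In Alpl the WKY library of batch 2 lay among the SHR libraries. Alpl did not pass the test (log2 fold change 1.21, SE 0.31, adjusted p 0.145 by edgeR). Ankh, a membrane protein that raises extracellular pyrophosphate, was at 58.5, 64.6 and 32.1 CPM in SHR and at 115, 106 and 36.4 CPM in WKY. Ankh did not pass the test (log2 fold change -0.69, SE 0.32, adjusted p 0.438 by edgeR). Of the 15 genes of the list, Enpp1 was the only call, and the median was 0.09 (0.10 in batch 1, -0.13 in batch 2). Among 24 genes of growth plate signals and hypertrophy 0 were called by edgeR, with a median of -0.13. Of these 24, 2 had an unadjusted p under 0.05 by edgeR, against 12.1% of all genes tested. Igf2, an insulin-like growth factor, was at 6.66, 0.409 and 63.3 CPM in SHR and at 27.4, 26.3 and 71.01 CPM in WKY. Igf2 did not pass the test (log2 fold change -2.18, SE 0.89, adjusted p 0.370 by edgeR).

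Contractile fibres and the genes that answer to cell tension formed the pathway list with the largest median. The coactivators YAP and MRTF enter the nucleus when actin fibres form and act through the DNA-binding factors TEAD and SRF. All 35 genes tested were positive in the model, with a median of 0.83, and 0 were called, with 16 at an unadjusted p under 0.05, against 12.1% of all genes tested. Within batch 1 all 35 were higher in SHR, by a median of 1.29 and a range of 0.13 to 3.84. In batch 2, with 1 library a strain, 15 of 35 were higher, by a median of -0.03 and a range of -1.46 to 0.46. The lowest levels were those of WKY replicates 1 and 2. Relative to each gene's mean, the list median was -1.24 and -0.88 in these libraries, 0.81 in WKY replicate 3, and 0.05, 0.47 and 0.67 in the SHR libraries. Pdlim7, a scaffold protein of actin fibres, was at 130.0, 169.6 and 466 CPM in SHR and at 35.1, 44.9 and 424 CPM in WKY. Pdlim7 did not pass the test (log2 fold change 1.32, SE 0.37, adjusted p 0.182 by edgeR). Ctgf, a secreted matrix signal also named Ccn2, was at 3144, 7636 and 6468 CPM in SHR and at 965, 1032 and 4709 CPM in WKY. Ctgf did not pass the test (log2 fold change 1.76, SE 0.52, adjusted p 0.203 by edgeR). Myh9, a nonmuscle myosin heavy chain, was at 1471, 2892 and 1334 CPM in SHR and at 462, 647 and 1360.1 CPM in WKY. Myh9 did not pass the test (log2 fold change 1.34, SE 0.41, adjusted p 0.215 by edgeR). Zyx, a protein of focal adhesions, was at 338, 372 and 761 CPM in SHR and at 201, 179.8 and 766 CPM in WKY. Zyx did not pass the test (log2 fold change 0.60, SE 0.20, adjusted p 0.267 by edgeR). Pericyte and smooth muscle markers, which share contractile genes with this list, summed to 1796 to 3584 CPM in SHR and to 169, 364 and 3646 CPM in WKY. Most of that sum was Acta2, which is on both lists. The pericyte gene Rgs5 was at most 0.0491 CPM, and the part of such cells was not tested.

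**Figure D4:**
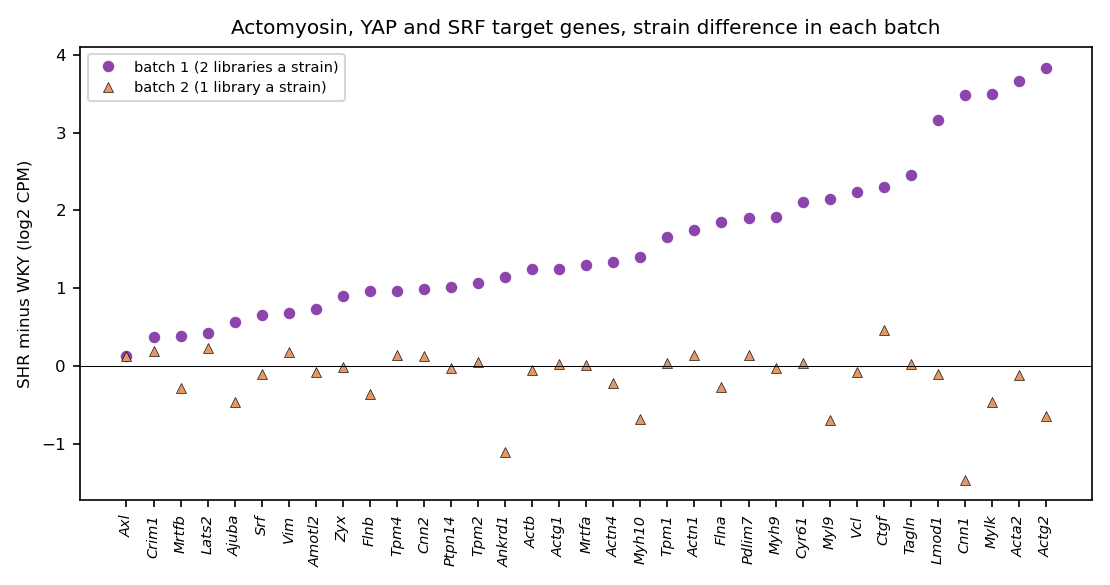
Difference between SHR and WKY in log2 CPM for the 35 actomyosin, YAP and SRF target genes, in batch 1 (purple circles) and batch 2 (orange triangles), ordered by the batch 1 value. The batch 1 points run from 0.13 to 3.84 and the batch 2 points scatter from -1.46 to 0.46.

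Since all of these genes were higher in SHR in batch 1, the start-site regions (250 bases before to 50 after the start, from RefSeq, GRCr8) of 26 of the 35 were searched on both strands. The letters CATTCC, the core recognised by TEAD factors, occurred in 12 of 26 (46.2%), against 15.03% of 27457 genes with such a region. In the 7 YAP targets matched it was 5 (71.4%), and in the 19 actomyosin and SRF targets 7 (36.8%). The CArG box bound by SRF occurred in 3 of 26 (11.5%), against 1.77% of all. The list was put together from target genes of YAP and SRF, so more matches than over all genes were built into its choice. The shares therefore say nothing about the strains. These matches describe the reference sequence, which comes from a strain other than SHR or WKY, and show neither binding nor a cause. The regions of Ctgf (chr1:22624565-22624864, minus strand), Cyr61 (Ccn1; chr2:237225640-237225939, minus strand) and Srf (chr9:21923826-21924125, plus strand) are shown. Ctgf had the most CATTCC matches of the genes searched (3) and Srf the most CArG boxes (2), while Cyr61, chosen as a relative of Ctgf, had 1 CATTCC, as other genes of the list did. Capitals mark CATTCC or its reverse complement GGAATG in Ctgf and Cyr61 and the CArG boxes in Srf.
Ctgf: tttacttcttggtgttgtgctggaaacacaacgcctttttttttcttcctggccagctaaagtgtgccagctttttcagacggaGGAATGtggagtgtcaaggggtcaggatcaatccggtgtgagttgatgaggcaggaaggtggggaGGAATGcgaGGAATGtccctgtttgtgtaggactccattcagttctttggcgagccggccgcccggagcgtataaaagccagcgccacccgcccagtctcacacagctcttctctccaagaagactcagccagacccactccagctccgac
Cyr61: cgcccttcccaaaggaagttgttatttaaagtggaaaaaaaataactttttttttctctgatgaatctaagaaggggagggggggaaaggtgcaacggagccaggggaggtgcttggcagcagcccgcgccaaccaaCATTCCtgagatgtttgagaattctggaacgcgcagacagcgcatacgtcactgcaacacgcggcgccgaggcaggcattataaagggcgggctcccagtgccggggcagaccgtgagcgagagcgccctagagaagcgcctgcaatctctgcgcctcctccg
Srf: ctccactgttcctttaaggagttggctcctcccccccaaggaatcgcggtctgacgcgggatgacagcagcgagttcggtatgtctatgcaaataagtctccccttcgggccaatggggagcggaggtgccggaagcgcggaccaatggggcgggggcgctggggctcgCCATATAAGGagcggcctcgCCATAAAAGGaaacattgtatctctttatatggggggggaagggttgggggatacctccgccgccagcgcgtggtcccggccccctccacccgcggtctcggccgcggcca
In the RNA, the strains overlapped in Ctgf, with WKY replicate 3 at 4709 CPM above SHR replicate 1 at 3144 CPM. Its difference between SHR and WKY in log2 CPM was 2.30 in batch 1 and 0.46 in batch 2. Cyr61, a relative of Ctgf, was at 567, 1286 and 2256 CPM in SHR and at 271, 145 and 2195 CPM in WKY. Cyr61 did not pass the test (log2 fold change 1.34, SE 0.53, adjusted p 0.345 by edgeR). Srf, the factor that binds the CArG box, was at 104, 136 and 194 CPM in SHR and at 83.4, 68.01 and 209 CPM in WKY. Srf did not pass the test (log2 fold change 0.39, SE 0.19, adjusted p 0.445 by edgeR). Cyr61 and Srf were named for their promoters, after their values were seen.

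**Figure D5:**
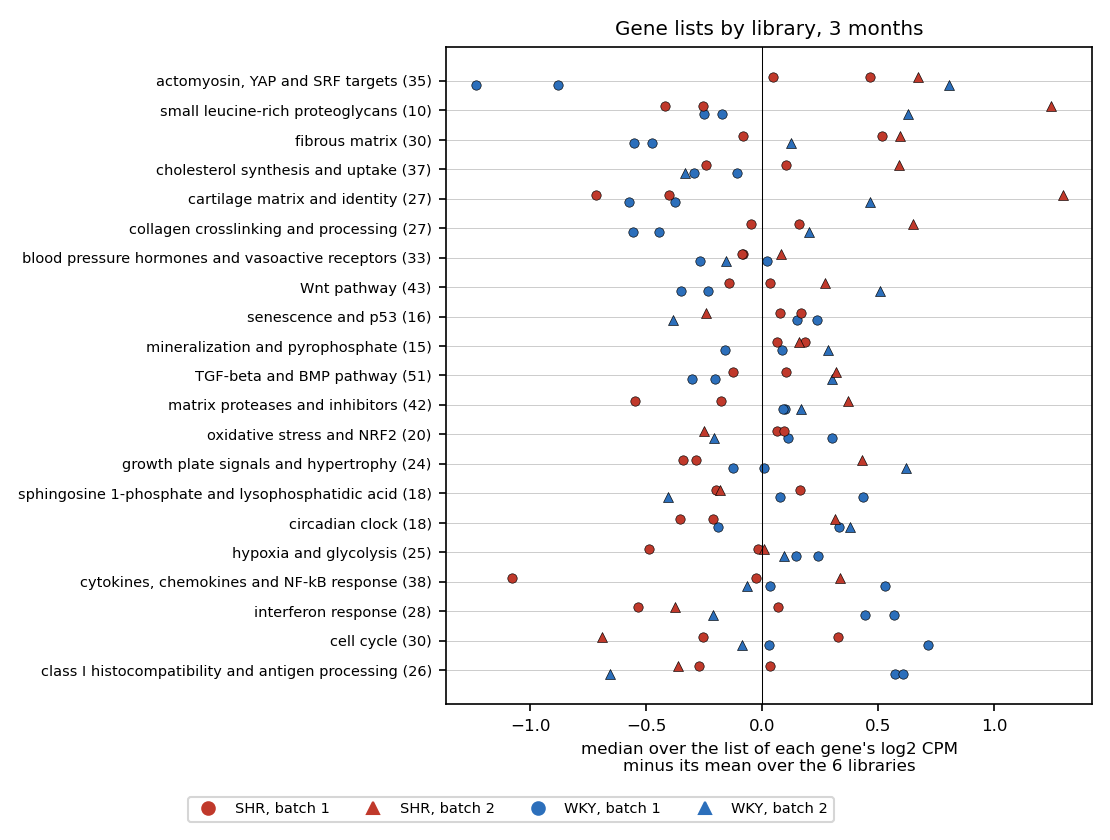
Gene lists (number of genes tested in brackets) by library at 3 months: median over the list of each gene's log2 CPM minus its mean over the 6 libraries; red is SHR, blue WKY, circles batch 1, triangles batch 2. For the actomyosin list the WKY batch 1 libraries lie at -1.24 and -0.88 and the other 4 libraries between 0.05 and 0.81, while for the cholesterol list the SHR libraries lie at -0.24, 0.10 and 0.59 and the WKY libraries from -0.33 to -0.11, so that SHR replicate 1 lies among them.

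Genes of cholesterol synthesis are switched together by the transcription factor SREBP2. Of 21 synthesis enzymes 19 were positive, with a median of 0.74, at 0.34 in batch 1 and 1.17 in batch 2, and 0 were called. At an unadjusted p under 0.05 by edgeR 13 were higher and 1 lower, where 12.1% of all genes tested passed in either direction. Msmo1, a methyl sterol oxidase, was at 68.9, 173 and 232 CPM in SHR and at 60.3, 41.9 and 57.998 CPM in WKY. Msmo1 did not pass the test (log2 fold change 1.51, SE 0.33, adjusted p 0.102 by edgeR). SHR replicate 3 was the highest, and each SHR library of Msmo1 was above each WKY library. Lss, which makes lanosterol, was at 50.4, 53.4 and 71.4 CPM in SHR and at 151, 127 and 99.1 CPM in WKY. Each SHR library of Lss was below each WKY library. Lss did not pass the test (log2 fold change -1.10, SE 0.21, adjusted p 0.0695 by edgeR). Cyp39a1, an oxysterol hydroxylase, was at 0.891, 0.526 and 0.0560 CPM in SHR and at 8.34, 6.52 and 1.19 CPM in WKY. Cyp39a1 was the only call among the 37 genes of the whole list. Cyp39a1 was called lower in SHR (log2 fold change -3.50, SE 0.41, adjusted p 0.0115 by edgeR). Cyp39a1 kept its call in 5 of the 6 fits and lost it without WKY replicate 1 (adjusted p 0.0216 to 0.0593 by edgeR).

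Class I histocompatibility genes present peptides to T cells, and the rat has many near-identical copies, so reads of a copy may be assigned to another and these counts are uncertain; the part of this in the result was not tested. Of 26 genes of the list 1 was called higher and 2 lower, with a median of -0.46, at -0.75 in batch 1 and 0.17 in batch 2. Over all genes tested 0.134% were called higher and 0.224% lower. RT1-CE4 was at 15.9, 13.3 and 21.7 CPM in SHR and at 3.13, 2.98 and 3.96 CPM in WKY. RT1-CE4 was called higher in SHR (log2 fold change 2.33, SE 0.30, adjusted p 0.0137 by edgeR). RT1-CE4 kept its call in 4 of the 6 fits and lost it without WKY replicates 1 or 2 (adjusted p 0.0319 to 0.0914 by edgeR). RT1-CE3 was at 3.99, 3.86 and 6.10 CPM in SHR and at 24.2, 21.98 and 23.7 CPM in WKY. RT1-CE3 was called lower in SHR (log2 fold change -2.34, SE 0.25, adjusted p 0.00755 by edgeR). RT1-CE3 kept its call in all 6 fits (adjusted p 0.0138 to 0.0440 by edgeR). The sum of RT1-CE4 and RT1-CE3 had a mean of 21.6 CPM in SHR (SD 5.53, n = 3) and of 26.6 CPM in WKY (SD 1.45, n = 3). RT1-N2 was at 1.15, 0.351 and 1.01 CPM in SHR and at 18.4, 18.9 and 10.9 CPM in WKY. RT1-N2 was called lower in SHR (log2 fold change -4.20, SE 0.50, adjusted p 0.0115 by edgeR). RT1-N2 kept its call in 5 of the 6 fits and lost it without WKY replicate 1 (adjusted p 0.0118 to 0.0537 by edgeR). RT1-CE2 was at 7.76, 8.76 and 5.49 CPM in SHR and at 3.13, 2.93 and 1.08 CPM in WKY. RT1-CE2 did not pass the test (log2 fold change 1.77, SE 0.32, adjusted p 0.0599 by edgeR).

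Interferon-induced genes defend cells against viruses. Of 28 tested, 22 were negative with a median of -0.43, at -0.80 in batch 1 and -0.06 in batch 2, and Ifi44l was the only call. Rtp4, an interferon-induced chaperone, was at 0.105, 0.0584 and 0.112 CPM in SHR and at 1.56, 1.77 and 0.283 CPM in WKY. Oasl, a relative of the antiviral oligoadenylate synthetases, was at 0.157, 0 and 0 CPM in SHR and at 1.15, 3.89 and 0.453 CPM in WKY. Bst2, a protein that tethers budding virus, was at 1.21, 0.234 and 0.0560 CPM in SHR and at 3.49, 5.61 and 1.36 CPM in WKY. In these 3 genes every SHR library was below every WKY library, and Rtp4 and Oasl had no more than 3 counts in any SHR library. Rtp4 did not pass the test (log2 fold change -3.38, SE 0.67, adjusted p 0.0782 by edgeR). Oasl did not pass the test (log2 fold change -5.06, SE 1.00, adjusted p 0.0782 by edgeR). Bst2 did not pass the test (log2 fold change -2.94, SE 0.60, adjusted p 0.0860 by edgeR). Cytokines, chemokines and NF-kB response genes had a median of -0.26 over 38 genes, at -0.62 in batch 1 and 0.16 in batch 2, and 0 were called by edgeR. Of the 38, 4 were lower at an unadjusted p under 0.05 by edgeR, where 12.1% of all genes tested passed in either direction. Il33, an alarm cytokine, was at 2.99, 1.05 and 3.69 CPM in SHR and at 18.2, 14.9 and 9.73 CPM in WKY. Il33 did not pass the test (log2 fold change -2.17, SE 0.95, adjusted p 0.402 by edgeR). Vcam1, an adhesion molecule for leukocytes, was at 3.51, 1.69 and 1.51 CPM in SHR and at 96.9, 13.4 and 1.02 CPM in WKY. WKY replicate 1 was far above the rest. Vcam1 did not pass the test (log2 fold change -2.87, SE 1.25, adjusted p 0.402 by edgeR). SHR replicate 2 had the lowest list median, at -1.08 relative to the mean.

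Cell division genes were negative in 28 of 30, with a median of -0.43, at -0.35 in batch 1 and -0.65 in batch 2. None was called by edgeR and 1 reached an unadjusted p under 0.05, against 12.1% of all genes tested. Tyms, which makes thymidylate for DNA synthesis, was at 22.2, 20.6 and 6.10 CPM in SHR and at 38.8, 42.1 and 19.9 CPM in WKY. Tyms did not pass the test (log2 fold change -1.11, SE 0.34, adjusted p 0.215 by edgeR). Ccnb1, a mitotic cyclin, was at 94.3, 48.2 and 23.7 CPM in SHR and at 93.02, 173 and 38.6 CPM in WKY. Ccnb1 did not pass the test (log2 fold change -0.85, SE 0.56, adjusted p 0.606 by edgeR). Hypoxia and glycolysis genes were negative in 22 of 25, with a median of -0.25, but the median was -0.46 in batch 1, where 2 of 25 were positive, and 0.14 in batch 2, where 15 were. Hif1a, the oxygen-regulated subunit of the hypoxia factor, was at 254, 145 and 241 CPM in SHR and at 484, 324 and 321 CPM in WKY. Hif1a did not pass the test (log2 fold change -0.81, SE 0.24, adjusted p 0.203 by edgeR). Car9, a carbonic anhydrase induced at low oxygen, was at 45.8, 159.9 and 161 CPM in SHR and at 179, 224 and 557 CPM in WKY. In both genes the SHR libraries were all below the WKY libraries. Car9 did not pass the test (log2 fold change -1.27, SE 0.39, adjusted p 0.214 by edgeR).

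Of the hormones and receptors that set blood pressure, 33 genes were tested. Among them, 18 were positive and 15 negative, with a median of 0.13, and the galanin receptor gene Galr2 was the only call. Galr2 was at 0.315, 0.234 and 0.168 CPM in SHR and at 3.80, 1.62 and 2.21 CPM in WKY. Galr2 was called lower in SHR (log2 fold change -3.40, SE 0.48, adjusted p 0.0223 by edgeR). Galr2 kept its call in 1 of the 6 fits, that without WKY replicate 2 (adjusted p 0.0354 to 0.123 by edgeR). For Galr2 the adjusted p by edgeR was 0.0546 with the alike 5-day libraries averaged. Of 7 renin-angiotensin genes tested, 5 were negative and none was called. Pde5a, which degrades cyclic GMP, the messenger of nitric oxide, was at 19.1, 10.8 and 11.5 CPM in SHR and at 50.7, 43.4 and 27.4 CPM in WKY. Pde5a did not pass the test (log2 fold change -1.51, SE 0.41, adjusted p 0.162 by edgeR). Avpr1a, a vasopressin receptor, was at 98.5, 179 and 182 CPM in SHR and at 67.3, 77.8 and 116 CPM in WKY. Avpr1a did not pass the test (log2 fold change 0.83, SE 0.32, adjusted p 0.332 by edgeR). The lists of the circadian clock (18 genes), oxidative stress (20) and senescence and p53 (16) had medians of -0.20, -0.10 and 0.09, and edgeR called 0 in each. In these lists 2, 1 and 2 genes had an unadjusted p under 0.05 by edgeR, against 12.1% of all genes tested. Nqo1, a quinone reductase under the stress factor NRF2, was at 85.7, 78.4 and 21.6 CPM in SHR and at 272, 186 and 64.8 CPM in WKY. Nqo1 did not pass the test (log2 fold change -1.50, SE 0.61, adjusted p 0.361 by edgeR). Bax, a promoter of cell death under p53, was at 87.8, 82.1 and 37.2 CPM in SHR and at 61.6, 66.1 and 28.6 CPM in WKY. Bax did not pass the test (log2 fold change 0.40, SE 0.11, adjusted p 0.161 by edgeR).

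Some called genes neighbour each other. Of the 48, 41 were found among protein-coding genes of RefSeq's GRCr8 annotation, and 3 pairs had at most 2 other protein-coding genes between them. Stk39 (higher) and Cers6 (lower) had 1 gene between them, RT1-CE4 (higher) and RT1-CE3 (lower) also 1, and Rspo3 and Kiaa0408L (both lower) had 2, Rnf146 and Echdc1. Kiaa0408L was at 0.157, 0.292 and 0.448 CPM in SHR and at 5.94, 5.96 and 3.28 CPM in WKY. Kiaa0408L was called lower in SHR (log2 fold change -4.18, SE 0.63, adjusted p 0.0298 by edgeR). Kiaa0408L kept its call in 1 of the 6 fits, that without WKY replicate 3 (adjusted p 0.0131 to 0.123 by edgeR). For Kiaa0408L the adjusted p by edgeR was 0.0545 with the replicate block and 0.0662 with the alike 5-day libraries averaged. A few further calls are copies of other genes whose reads can be exchanged. The ribosomal protein gene Rpl30 was at 202, 209 and 124 CPM in SHR and 0.782, 1.31 and 0.849 CPM in WKY, the reverse of its copy LOC100362027, and their sum was 180 ± 47.1 and 201 ± 66.4 CPM (SD, n = 3), which differ by less than the spread between replicates. Rpl30 was called at an adjusted p of 0.000697 by edgeR. Rpl30 kept its call in all 6 fits (adjusted p 0.00263 to 0.0115 by edgeR). LOC100362027 was called at an adjusted p of 0.00280 by edgeR. LOC100362027 kept its call in all 6 fits (adjusted p 0.00669 to 0.0170 by edgeR).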

How the data were processed

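RNA sequencing of 12 libraries (3 for each strain and age) was used. The authors deposited a table of expected counts per gene (estimated read counts, 9.173% of them not whole) and tables on a log2 scale. The submitters' processing notes name Bowtie2 2.4.4, RSEM 1.2.28 and DESeq2 1.42.1, with the build Rnor_6.0. Strandedness and annotation are not given in the sources used here. The deposited log2 table of the 3-month samples, whose batch means were equal in each gene, served 1 alternative.

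Expected counts were rounded, filtered with filterByExpr by group and scaled by TMM. All 12 libraries were fitted with edgeR 4.0.16 (R 4.3.3, robust quasi-likelihood), with group and batch as terms and Benjamini-Hochberg adjustment. Marker CPM are per total count. Standard errors came from the test statistic. Levels limited to a few counts carry counting error, for which floors of 3 counts were used.

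Genes were named by rule: up to 15 called genes in each direction by fold change (group mean of 2 CPM or more in the higher strain, same direction in both batches, no provisional symbol), up to 4 members of each list by smallest p, a fixed set, and genes called in every fit that left out a library of 3 months. The comparison, lists and rule were chosen with earlier results of these data known. The fit was also run on simulated counts, drawn independently around fitted means with set strain differences at 3 months. Outlying or unusually alike libraries were not simulated, so that run does not show how stable the calls above are. Alternatives used DESeq2 1.42.0, limma 3.58.1 and other scalings, filters, terms and samples, and all but the filters kept the same 13397 genes. Replicate numbers were checked for pairing: deviations from the group means correlated at 0.487, 0.202 and 0.644 for equal numbers, but SHR replicate 1 correlated at 0.508 with WKY replicate 2, and 1 and 2 share batch 1. All comparisons share 1 estimate of each gene's spread. One gene that the rule named is not reported here.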

Additional observations from a re-analysis of the deposited data

How the results depend on the processing

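Against 48 genes called (18 higher, 30 lower), DESeq2 called 607 (339 and 268), limma-voom 73 (26 and 47), the fit with no batch term 10 (5 and 5), only the 6 libraries of 3 months 23 (10 and 13), batch 1 alone 71 (52 and 19), at least 5 CPM in 3 libraries 33 with 18 lower, SHR 5-day replicates 1 and 2 averaged 25 (9 and 16), and a fit of the authors' deposited log2 values with limma 27 (11 and 16). With a replicate block in place of the batch 28 genes were called (10 and 18), 26 of them shared with the 48. Beside the genes given above, the block ended the calls of Mrgprx3 (adjusted p 0.0534 by edgeR) and Hmgb2l1 (0.0609) and changed no other call among the named genes. Leaving out any 1 of the 12 libraries gave 11 to 79 calls, with 5 to 45 higher and 6 to 40 lower. RLE scaling gave 48, library totals 46, no robust option 49 and no low-count filter 51. Calls for the difference between ages were 34 with DESeq2 and 1 with batch 1 alone, and 0 to 1 without any 1 library. Over 25 alternatives, 2510 values of the 114 named genes kept sign and side of the threshold, 248 lost a call, 69 gained one and 7 turned sign. Those were Col2a1, at -0.16 with only the 6 libraries, -2.07 in batch 1 alone and -2.498 (without SHR replicate 3) to 1.26 with a library left out; Comp, at -0.20 in batch 1 alone and -0.39 (without WKY replicate 3) to 0.81 with one left out; and Sox9, at -0.20 (without SHR replicate 2) to 0.92. Of the list medians, 523 moved by less than the spread between replicates and 2 moved by more, both of matrix proteases and inhibitors. The cause of the 2 moves was not tested. The spread was taken over both batches and so includes the difference between them. Where it is wide, a median could change sign and still count among the 523, so that number does not show stable medians. Depth limited genes of a few counts, such as Ifi44l and Oasl.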
